A study of Mus musculus with 23 samples.

Results

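The 32 genes described here encode enzymes and regulators of cholesterol and fatty acid synthesis that sterol regulatory element binding proteins (SREBPs) are known to switch on. They were taken from a fixed list, 21 of the sterol branch and 11 of the fatty acid branch, out of 22350 genes with a row in the RNA-seq files, and all 32 passed the filter on low counts in each of the 6 comparisons. SREBP precursors sit in the endoplasmic reticulum with SCAP. When membrane sterol is low they are carried to the Golgi, cut, and released as transcription factors, while Insig1 holds the complex back when sterol is plentiful. SREBP-2 (Srebf2) is known mainly for the sterol genes and SREBP-1c (Srebf1) for the fatty acid genes, and mTORC1 is known to favour the nuclear entry and activity of both. The intestinal epithelium makes cholesterol as well as absorbing it.

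The series measured C57BL/6 mouse small intestine with and without Raptor (Rptor), the subunit that brings substrates to the kinase mTOR in mTORC1. RNA-seq covered organoids of genotype VillinCre.ERT2.RPL22.HA, untreated (WT, 2 lines with 2 technical libraries each), organoids of genotype VillinCre.ERT2.Rptor.fl/fl, also labelled untreated (Rptor fl/fl, 2 lines with 2 technical libraries each), and VillinCre.ERT2.RPL22.HA organoids enriched for stem cells with 10 µM CHIR 99021 and 1.5 mM valproic acid (SCe, 3 libraries). Ribo-seq, the sequencing of ribosome-protected footprints after pulldown of HA-tagged RPL22 ribosomes, covered VillinCre.ERT2.Rptor.fl/fl.RPL22.HA organoids (3), SCe organoids of genotype VillinCre.ERT2.RPL22.HA (3), mice of genotype Lgr5Cre.ERT2.RPL22.HA (WT, 3) and mice carrying Lgr5Cre.ERT2.Rptor.fl/fl.RPL22.HA (Rptor fl/fl, 3). Mice of both genotypes and the Rptor fl/fl organoids carry the label untreated, whereas the study's methods describe tamoxifen induction, with adult Lgr5Cre.ERT2 mice sampled the day after. VillinCre.ERT2 acts in the whole epithelium. Lgr5Cre.ERT2 acts in Lgr5+ crypt cells, so in mice both the tag and the deletion depend on Cre activity there, and the WT mice carried the Cre and the tag as well. The RPL22.HA allele is absent from the label of the Rptor fl/fl RNA-seq organoids. The titles number organoids and mice without naming the animals behind the organoid lines, so p-values over organoids measure the spread between these samples, which may be technical.

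RNA-seq libraries held 23802944 to 29690442 reads, except SCe 2 and SCe 3 with 67598878 and 59404042. Organoid Ribo-seq libraries held 1106178 to 8257457 and mouse libraries 772077 to 8238388. Rptor was lower in Rptor fl/fl than in WT organoid RNA (14.8 and 15.5 against 51.4 and 47.9 CPM, counts over the scaled library size, with a log2 change of -1.71 ± 0.08, edgeR adjusted p = 0.00516). It did not separate the groups in organoid Ribo-seq, where SCe libraries held 15.2, 41.9 and 21 CPM and the group labelled Rptor fl/fl 17.3, 18.7 and 16.0. SCe 1 of the RNA-seq stood apart, with 12 enterocyte markers summing to 1670 CPM against 10100 in SCe 3. Stem cell markers did not follow the SCe label as a set: Lgr5 was at 336, 223 and 219 CPM in SCe against 212 and 194 in WT (log2 change 0.35, edgeR adjusted p = 0.244), while Olfm4 was at 134, 42.4 and 52.9 against 2820 and 4370 (-5.56, adjusted p = 0.00351). In the mouse pulldown Lgr5 was at 6.32 to 45.8 CPM beside enterocyte marker sums of 71100 to 86900 CPM and immune marker sums of 3480 to 3850 CPM, so the footprints were not those of Lgr5+ cells alone. In bulk samples, fewer cells of a type and less RNA per cell cannot be told apart.

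In WT organoid RNA, members stood well above the median expressed gene when levels were taken per length of transcript and scaled to the same total in each library. That median was 7.73, while the lowest member, Hsd17b7 (a ketosteroid reductase of sterol synthesis), was at 22.7 ± 3.31 (SD, n = 2). The highest was Scd2, a stearoyl-CoA desaturase, at 867 ± 247. Next came enzymes of the early sterol route, Fdps (farnesyl diphosphate synthase) at 485 ± 49.1, Hmgcs1 (HMG-CoA synthase) at 336 ± 18.6 and Idi1 (isopentenyl diphosphate isomerase) at 269 ± 23.3. Idi1 was not separated from Msmo1 (241 ± 33.1) or Insig1 (238 ± 32.9), given these SDs. Acaca, the acetyl-CoA carboxylase that commits carbon to fatty acids, was next to lowest at 35.9 ± 1.78. The summed per-length level of the sterol branch was 1.71 and 1.99 times that of the fatty acid branch in the WT lines, 2.15 and 2.22 times in the Rptor fl/fl lines, and 1.15, 1.74 and 1.66 times in SCe, so that both Rptor fl/fl lines were above all other RNA-seq samples. Scd1 alone made up 9.17 and 8.74% of the fatty acid sum in WT and 3.08 and 2.6% in Rptor fl/fl. Without Scd1 and Scd2 the fatty acid sum was 753 and 653 in WT and 625 and 558 in Rptor fl/fl. The sterol sums were 3387 and 2936 in WT and 2799 and 2383 in Rptor fl/fl. With both desaturase genes left out, the ratio was thus not higher in Rptor fl/fl than in WT.

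Promoter sequence is shown because sterol members moved together in several comparisons. Fatty acid members were more divided, with 5 above and 6 below 0 for SCe against WT, and are shown beside them. RefSeq promoter windows (GRCm38.p6, mm10, 250 bases before to 50 after the start) were used for 25 of the 32 genes, 17 sterol and 8 fatty acid (not Sqle, Fdps, Fdft1, Stard4, Scd1, Scd2 and Fads1). Motifs known from SREBP target promoters were searched on both strands, namely the sterol regulatory element TCACNCCAC, the E-box form TCACGTGA, the NF-Y box CCAAT and the Sp1 box GGGCGG. The NF-Y box was present in 16 of 17 sterol genes (94.1%), 5 of 8 fatty acid genes (62.5%) and 41.1% of all 27025 genes with a window. GGGCGG gave the same counts (94.1 and 62.5%) against 38.2% of all genes. The windows of the 2 branches had 61.2 and 61.5% GC, against 53.8% over all windows, which bears on GGGCGG. TCACNCCAC was found in 1 sterol gene, Hmgcs1, in no fatty acid gene, and in 1.44% of all genes, and TCACGTGA in no member and 1.12% of all genes. These are matches of letters in short windows and not sites shown to be bound, and a link between them and the changes was not tested. The 150 bases upstream of the start are printed 5′ to 3′ for 3 sterol enzymes (Hmgcs1, Mvd, Mvk) that changed in the data below and for Fasn (fatty acid synthase) and Acly (ATP citrate lyase) as fatty acid counterparts, none overlapping an annotated exon. Capitals mark the letters of any of these motifs, on either strand. Hmgcs1 lies at chr13:119690201-119690350 (+), Mvd at chr8:122443423-122443572 (-), Mvk at chr5:114444119-114444268 (+), Fasn at chr11:120824548-120824697 (-) and Acly at chr11:100528001-100528150 (-).
Hmgcs1: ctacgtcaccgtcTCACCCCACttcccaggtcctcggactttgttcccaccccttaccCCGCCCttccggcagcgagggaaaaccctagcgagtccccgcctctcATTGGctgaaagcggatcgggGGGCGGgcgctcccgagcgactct
Mvd: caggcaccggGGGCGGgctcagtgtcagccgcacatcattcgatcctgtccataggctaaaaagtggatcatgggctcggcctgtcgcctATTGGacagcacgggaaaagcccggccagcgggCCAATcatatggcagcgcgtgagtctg
Mvk: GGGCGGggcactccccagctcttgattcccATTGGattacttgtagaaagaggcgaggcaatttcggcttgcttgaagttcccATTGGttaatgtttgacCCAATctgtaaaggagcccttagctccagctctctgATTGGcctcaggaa
Fasn: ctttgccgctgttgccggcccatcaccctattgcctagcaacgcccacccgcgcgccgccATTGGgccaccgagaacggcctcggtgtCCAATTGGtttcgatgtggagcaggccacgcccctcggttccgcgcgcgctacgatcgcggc
Acly: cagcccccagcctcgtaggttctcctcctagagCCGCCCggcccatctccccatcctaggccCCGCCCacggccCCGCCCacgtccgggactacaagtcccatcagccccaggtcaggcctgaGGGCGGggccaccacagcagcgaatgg
The TCACNCCAC match of Hmgcs1 began 137 bases before the start and its CCAAT match (read on the other strand as ATTGG) 45 bases before it. Mvk held 4 CCAAT matches in this stretch, Fasn 3, Mvd 2 and Acly none, while Acly held 4 GGGCGG matches and Fasn none.

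The effect of losing Raptor on the mRNA of these genes was first read from Rptor fl/fl against WT organoids. Members of both branches were lower, and none was called higher in this fit. In the sterol branch 10 of 21 members were lower (edgeR quasi-likelihood test, adjusted p under 0.05), against 11% of all 14131 genes called lower and 11.6% called higher. In the fatty acid branch 5 of 11 were lower. The median log2 change was -0.42 in the sterol branch and -0.44 in the fatty acid branch, against -0.005 over all genes, and 20 of 21 sterol members had a value below 0. Of members called in neither direction, 1 in each branch was above 0 at an unadjusted p under 0.05 (Srebf2 and Srebf1), and DESeq2 called none higher. With technical libraries counted as separate samples both were called higher, and with the replicate number as a block Srebf2 was (adjusted p = 0.0268). The largest change was that of Scd1 (chr19:44394455-44407879, - strand, GRCm38), which makes monounsaturated fatty acids. It was at 666 and 480 CPM in WT and 132 and 97.2 in Rptor fl/fl, a log2 change of -2.32 ± 0.23 (SE, adjusted p = 0.0109). Its sister gene Scd2, 4289 and 2884 CPM in WT and 2338 and 1931 in Rptor fl/fl, did not pass the test (-0.75 ± 0.23, adjusted p = 0.0763), with WT lines that differed from each other by more than WT line 2 differed from Rptor fl/fl line 1.

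Acss2 (chr2:155517948-155585724, + strand), which makes cytosolic acetyl-CoA from acetate, was at 119 and 106 CPM in WT and 53.3 and 57.1 in Rptor fl/fl (-1.03 ± 0.08, adjusted p = 0.00976). It overlaps Gss on the other strand, which was at 147 to 161 CPM. Fads1, a desaturase of polyunsaturated fatty acids, was at 266 and 209 in WT and 115 and 132 in Rptor fl/fl (-0.95 ± 0.14, adjusted p = 0.0186). Fads2 (-0.66) and Elovl6 (-0.44), the other desaturase of that route and the elongase of palmitate, also fell. The lipogenic core moved less, with values of 0.14 for Fasn, -0.18 for Acly, -0.22 for Acaca and 0.03 for Me1 (malic enzyme), none past the threshold.

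In the sterol branch the genes with the smallest adjusted p were spread along the pathway. Tm7sf2, a sterol reductase acting after lanosterol, was at 79.9 and 61.7 CPM in WT and 31.1 and 31.9 in Rptor fl/fl (-1.17 ± 0.14, adjusted p = 0.0134). It overlaps Vps51 on the same strand, which was at 32.2 to 45.5 CPM in these lines. Insig1 was at 512.5 and 428 in WT and 247 and 262 in Rptor fl/fl (-0.89 ± 0.11, adjusted p = 0.0147). Pmvk (phosphomevalonate kinase) was at 71.8 and 64.7 in WT and 46.0 and 43.7 in Rptor fl/fl (-0.61 ± 0.08, adjusted p = 0.0153). In all 3 genes the lines of the 2 groups did not overlap and the lines of a group lay close together relative to the gap. The lines of Lss and Hmgcs1 did not overlap either, without a call, so with 2 lines a group this adds little to the test. Dhcr7, which reduces 7-dehydrocholesterol to cholesterol, was at 138 and 128 in WT and 101 and 98.3 in Rptor fl/fl (-0.42 ± 0.06, adjusted p = 0.0186). Acat2 (acetoacetyl-CoA thiolase), Nsdhl, Idi1, Fdps, Ebp and Mvd made up the rest, with log2 changes of -0.62 to -0.41. The genes of the SREBPs themselves did not fall with them. Srebf2 was at 324 and 275.5 in WT and 382 and 351 in Rptor fl/fl (0.29 ± 0.11, adjusted p = 0.112), and Srebf1 at 176.5 and 178 in WT and 194 and 206 in Rptor fl/fl (0.18 ± 0.06, adjusted p = 0.101). For both, each Rptor fl/fl line was above each WT line, which carries little weight with 2 lines a group. Srebf1 overlaps Rai1 on the other strand, which was at 52.1 to 83.4 CPM in these lines.

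Of 26 further genes of sterol handling 3 were lower and 1 higher, against 11% and 11.6% of all genes. The lower ones were Npc1l1 (the sterol importer of enterocytes, -1.13), Tmem97 (-0.61) and Soat1 (sterol esterification, -0.70), and the higher one was the sterol exporter Abcg5 (0.83). Of 27 further fatty acid genes tested, 6 were lower and 2 higher, with the smallest adjusted p for Gpam (triglyceride synthesis, -1.37), Acsl1 (-0.96), Slc25a1 (the citrate carrier, -0.45) and Idh1 (-0.54). Cell type markers moved in the same comparison: all 4 Paneth cell markers were lower (sums of 2340 and 3020 CPM in WT, 299 and 573 in Rptor fl/fl), 5 of 6 stem cell markers were lower (3570 and 5150 against 816 and 2050) and 4 of 6 goblet cell markers were higher (1580 and 1680 against 2930 and 4030). Their part in the lipid gene values was not tested. With 2 lines a group the counts were fragile. Sterol calls fell to 2 without WT line 1 (Insig1 and Tm7sf2), to 5 without WT line 2 and to 5 without Rptor fl/fl line 2, and to 0 in a single fit over the 3 RNA groups (11 lower at an unadjusted p under 0.05). The fatty acid calls fell to 3 without WT line 1, without Rptor fl/fl line 1 or without Rptor fl/fl line 2, and to 3 in the single fit. Scd1 and Acss2 kept their calls in all of these.

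**Figure D1:**
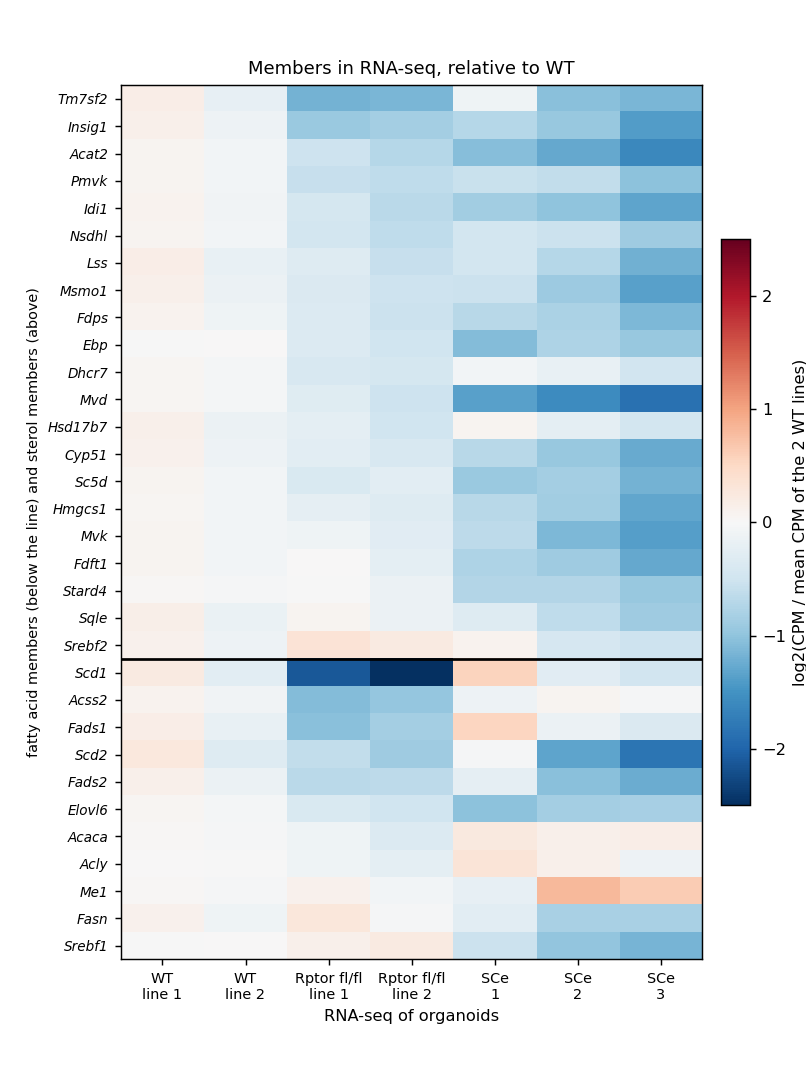
Colour gives log2 of each member's CPM over the mean of the 2 WT lines, one column per WT line, Rptor fl/fl line or SCe library, each taken on the scale of its fit with WT, with sterol members above the line and fatty acid members below. Scd1 is the darkest blue in both Rptor fl/fl lines, whereas Mvd is the darkest sterol gene in the SCe columns, and Srebf2 and Srebf1 are above the WT mean in both Rptor fl/fl lines.

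SCe organoids were then set against WT organoids, a comparison in which Rptor was intact and the culture medium differed. All 21 sterol members had a negative value, 15 of them past the threshold, against 19.9% of all 14925 genes called lower and 22.4% called higher. The median log2 change was -0.90, against 0.02 over all genes. The fatty acid branch had a median of -0.025 with 2 of 11 members lower. No sterol member reached an unadjusted p under 0.05 in the upward direction, and 1 fatty acid member did (Acaca, 0.18, adjusted p = 0.0918), which DESeq2 called higher. The gap between the medians of the branches was thus -0.88, where it was 0.02 for Rptor fl/fl against WT. The WT lines are shared by these 2 comparisons.

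Mvd (chr8:122433601-122443422, - strand), which decarboxylates mevalonate diphosphate, was at 118 and 109 CPM in WT and 44.0, 38.0 and 31.0 in SCe (-1.59 ± 0.16, adjusted p = 0.00267). It overlaps Gm20388 on the other strand, which was at 67.4 to 79.0 CPM, and whether the counting used strand is not stated, so reads of the pair cannot be told apart with certainty. Ebp, the sterol isomerase, was at 76.2 and 77.9 in WT and 36.2, 45.1 and 40.1 in SCe (-0.93 ± 0.11, adjusted p = 0.00375). Stard4, a soluble sterol carrier, was at 394 and 378 in WT and 234, 231 and 200 in SCe (-0.80 ± 0.09, adjusted p = 0.00394). The sterol desaturase gene Sc5d was at 176 and 159 in WT and 88.4, 92.7 and 74.1 in SCe (-0.98 ± 0.12, adjusted p = 0.00411). In these 4 genes every SCe library lay far below both WT lines. Insig1 was at 506 and 422 in WT and 284, 240 and 175 in SCe (-0.99 ± 0.22, adjusted p = 0.0206). Srebf2, at 320 and 272 in WT and 315, 221 and 206 in SCe, overlapped between groups (-0.26 ± 0.21, adjusted p = 0.364).

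Among fatty acid genes Elovl6 fell from 266 and 249 CPM in WT to 127, 143 and 145 in SCe (-0.90 ± 0.08, adjusted p = 0.00238). Srebf1 fell from 174 and 175 to 121, 87.98 and 77.8 (-0.87 ± 0.20, adjusted p = 0.0216), with its opposite-strand neighbour Rai1 at 39.1 to 58.0 CPM. Fasn, at 522 and 447.5 in WT and 406, 278 and 276 in SCe, did not pass (-0.60 ± 0.21, adjusted p = 0.0687). Scd1 was at 657.5 and 474 in WT and 827, 467 and 404 in SCe, a fitted log2 change of 0.00 ± 0.36, and Acss2 at 118 and 104 against 102, 117 and 109 (-0.03 ± 0.09). So the pair that fell in Rptor fl/fl organoids had overlapping groups here. Of 26 further sterol genes 6 were lower and 3 higher, against 19.9 and 22.4% of all genes, with the smallest adjusted p for Lbr (-0.77), the oxysterol receptor Nr1h3 (-1.72), Scarb1 (-0.76) and Soat2 (-1.84). Of 29 further fatty acid genes 9 were higher and 6 lower, against the same shares. Acacb, the mitochondrial acetyl-CoA carboxylase, was at 1.54 and 1.81 CPM in WT and 14.1, 15.8 and 14.6 in SCe (3.14), and Elovl5 rose by 1.2, with Elovl2 at 0.279 and 0.259 against 2.53, 4.26 and 3.84 CPM and Elovl4 at 0.00 and 0.0199 against 1.27, 2.00 and 2.48.

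Goblet cell markers were lower in SCe for 5 of 6 genes (1560 and 1660 against 243 to 427 CPM), and 5 of 7 enteroendocrine and tuft cell markers were lower and 1 higher. Olfm4 and Ascl2 of 6 stem cell markers were lower, as was 1 of 12 enterocyte markers. Smooth muscle and stroma markers were higher for all 3 genes tested, with sums of 1.99 and 3.12 CPM in WT and 67.8 to 113 in SCe, most of it Vim (vimentin), at 1.82 and 2.92 against 89.8, 66.0 and 111 CPM, while Col3a1 was at 0 in all these libraries. Their part in the lipid gene values was not tested. Without the deviating SCe 1 library all 21 sterol members were called lower, the fatty acid branch had 1 higher and 5 lower, and its median was -0.38. Sterol calls fell to 5 without WT line 1 and 6 without WT line 2, and the fatty acid calls to 1 without either WT line or without SCe 2.

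**Figure D2:**
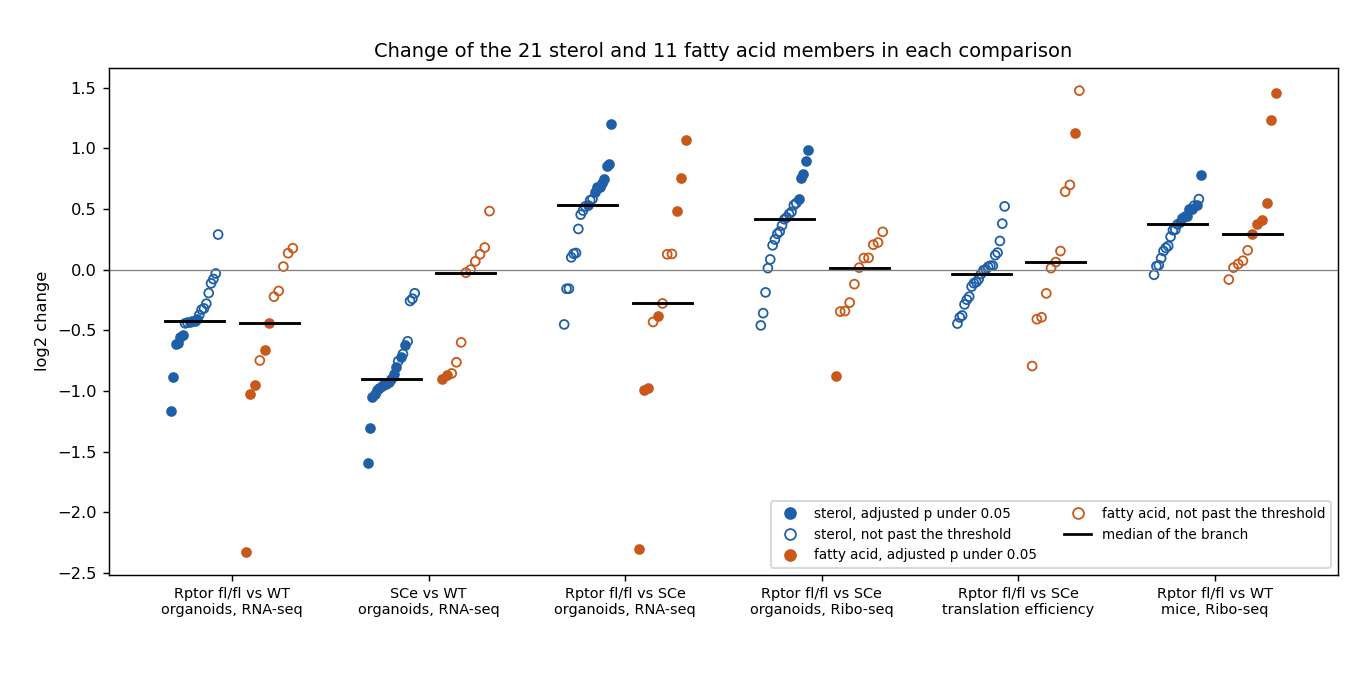
Each point is the log2 change of a member in a comparison (blue, 21 sterol; orange, 11 fatty acid; filled where the edgeR adjusted p was under 0.05) and bars are branch medians. The blue bars lie at -0.42, -0.90, 0.53, 0.42, -0.04 and 0.37 from left to right, the orange bars at -0.44, -0.03, -0.28, 0.02, 0.06 and 0.29.

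Set against SCe, the comparison the study used for translation, Rptor fl/fl organoid RNA had higher sterol genes and a divided fatty acid branch. Of 21 sterol members 9 were higher and none lower, also none at an unadjusted p under 0.05 or in DESeq2, against 21% of all 15103 genes called higher and 21.8% called lower. Of 11 fatty acid members 3 were higher and 4 lower. The medians were 0.53 and -0.28, against -0.014 over all genes. The comparison shares its Rptor fl/fl lines with that against WT and its SCe libraries with that of SCe against WT, so it is no separate evidence. Rptor was at 61.2, 54.3 and 54.0 CPM in SCe and 14.9 and 15.6 in Rptor fl/fl (-1.89, adjusted p = 0.00105).

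Stard4 was at 236, 232 and 202 CPM in SCe and 390 and 358.5 in Rptor fl/fl (0.75 ± 0.10, adjusted p = 0.00513). Mvd was at 44.5, 38.1 and 31.2 in SCe and 93.9 and 80.7 in Rptor fl/fl (1.203 ± 0.166, adjusted p = 0.00521). Both genes had Rptor fl/fl lines above all SCe libraries, as did Sc5d, at 89.3, 92.9 and 74.6 against 131 and 143 (0.68 ± 0.12, adjusted p = 0.00957). The squalene synthase gene Fdft1 was at 129, 118 and 89.7 in SCe and 223 and 187 in Rptor fl/fl (0.87 ± 0.18, adjusted p = 0.0148). Ebp, Acat2, Mvk (mevalonate kinase), Hmgcs1 and Cyp51 (lanosterol demethylase) rose by 0.53 to 0.85. Fdft1 overlaps Ctsb and Cyp51 overlaps Akap9, each on the other strand. Srebf2 was at 318, 222 and 207 in SCe and 385 and 354 in Rptor fl/fl (0.57 ± 0.20, adjusted p = 0.0744), and Insig1 at 287, 241 and 176 against 250 and 264 (0.13 ± 0.21, adjusted p = 0.648), with overlapping groups for Insig1.

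In the fatty acid branch Acss2 was at 103, 117 and 109 CPM in SCe and 53.8 and 57.7 in Rptor fl/fl (-0.98 ± 0.09, adjusted p = 0.00202), and Scd1 at 835, 468 and 406 against 133 and 98.1 (-2.30 ± 0.38, adjusted p = 0.00856). Fads1 (-0.99) and Acaca (-0.38) also fell. Against the sign of the branch median, Elovl6 rose from 129, 143 and 146 to 202 and 186 (0.48 ± 0.09, adjusted p = 0.0117), Srebf1 from 122, 88.2 and 78.3 to 196 and 208 (1.07 ± 0.20, adjusted p = 0.0119), and Fasn by 0.76. The calls thus put Acaca, Acss2, Fads1 and Scd1 on the lower side and Srebf1, Fasn and Elovl6 on the upper. Rai1, which overlaps Srebf1 on the other strand, was at 39.2 to 84.2 CPM in these samples. The desaturases Scd2 and Fads2 were called in neither direction, and were called higher without SCe 1. Transcripts of Srebf1 from the upstream start at chr11:60220604, which gives SREBP-1a, held 62.9 and 69.6% of the gene's per-length level in Rptor fl/fl, 60.0 and 59.6% in WT and 55.6, 57.4 and 58.2% in SCe. Those from chr11:60210465, the SREBP-1c start, held 34.2 and 27.1%, 35.2 and 36.0%, and 40.5, 40.1 and 37.6%. These shares come from the authors' division of reads among 3 transcripts and were not tested.

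Of 26 further sterol genes 7 were higher and 4 lower, against 21 and 21.8% of all genes, led by Lbr (0.95), the SREBP protease Mbtps1 (0.57), Nr1h3 (1.81) and the lysosomal lipase Lipa (-0.75). Of 29 further fatty acid genes 14 were lower and 7 higher, led by Acacb (-2.62), Hacd3 (-0.85), Elovl4 (1.28, 2.01 and 2.49 CPM in SCe against 0.00 and 0.0176) and Acsl1 (-1.13). All 6 goblet cell markers were higher (245 to 430 CPM in SCe, 2950 and 4060 in Rptor fl/fl), as were 5 of 7 enteroendocrine and tuft cell markers. Of 4 smooth muscle and stroma markers tested 3 were lower (68.0 to 114 against 1.50 and 3.31 CPM), including Vim, at 90.7, 66.2 and 112 in SCe and 1.25 and 2.96 in Rptor fl/fl. Of 6 stem cell markers Lgr5 and Smoc2 were lower and Olfm4 and Ascl2 higher, 2 of 4 Paneth cell markers were lower, and of 12 enterocyte markers 2 were higher and 1 lower. Their part in the lipid gene values was not tested. Without SCe 1, 14 sterol members were higher and none lower, and 5 fatty acid members were higher and 5 lower. Without either Rptor fl/fl line 2 sterol members (both higher) and 1 fatty acid member remained past the threshold, and without SCe 2 or SCe 3 5 sterol members did. The fatty acid calls were 4 without SCe 2. Mvd and Stard4 in the sterol branch and Acss2 in the fatty acid branch kept their calls in all of these.

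Footprints were compared in organoid Ribo-seq between SCe and the group labelled Rptor fl/fl, in which Rptor footprints were not called lower (log2 change -0.53 ± 0.34, adjusted p = 0.318). Values count reads on coding sequences. The sterol branch was higher, with 5 of 21 members called higher and none lower against 6.63% of all 10817 genes called higher and 9.84% called lower, and a median of 0.42 against -0.02 over all genes. At an unadjusted p under 0.05, 10 sterol members were higher and 1, Dhcr7, lower, and DESeq2 called 8 higher and 1 lower. The fatty acid branch had a median of 0.02, with 1 member lower and none higher, also none at an unadjusted p under 0.05 or in DESeq2.

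Acat2 had 166, 238 and 204 CPM in SCe and 365, 385 and 375 in the group labelled Rptor fl/fl (0.89 ± 0.18, adjusted p = 0.0120). Its near copy Acat3 held at most 3.02 CPM. Idi1 had 275, 183 and 297 against 465, 519 and 517 (0.99 ± 0.21, adjusted p = 0.0147), and Mvd 49.4, 60.7 and 51.8 against 92.2, 85.3 and 93.8 (0.75 ± 0.16, adjusted p = 0.0155). In these enzymes of the mevalonate route no SCe library reached any of the other group. Stard4 had 96.6, 99.2 and 99.9 against 150, 151 and 141 (0.58 ± 0.15, adjusted p = 0.0289), and Mvk was also higher (0.79). Dhcr7, with 209, 225 and 196 in SCe and 144, 151 and 163, pointed the other way but did not pass (-0.46 ± 0.15, adjusted p = 0.0742). Per length Dhcr7 had the opposite direction, at 44.3 ± 14 in SCe and 91.5 ± 69.1 in the group labelled Rptor fl/fl (SD, n = 3), and with a length offset no sterol member was lower at an unadjusted p under 0.05. Srebf2 (143, 162 and 181 against 238, 189 and 222) and Insig1 (134, 81.3 and 79.1 against 130, 143 and 131) had adjusted p = 0.135 and adjusted p = 0.195.

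Scd1 was the single fatty acid member past the threshold, with 420.5, 279 and 517 CPM in SCe and 221, 231 and 212 in the group labelled Rptor fl/fl (-0.88 ± 0.23, adjusted p = 0.0331). The next were Fads1, with 256, 199 and 229 against 171, 190 and 177 (-0.35 ± 0.16, adjusted p = 0.181), and Me1, with 58.1, 77.0 and 68.7 against 52.7, 50.8 and 56.6 (-0.34 ± 0.17, adjusted p = 0.203). In all 3 the labelled Rptor fl/fl libraries were lower in CPM than every SCe library. Per length Fads1 had the opposite direction, at 54.8 ± 13.2 in SCe and 67.7 ± 20.8 in the group labelled Rptor fl/fl (SD, n = 3). Srebf1 footprints, 119, 163 and 148 against 173, 169 and 160, overlapped (0.22 ± 0.17, adjusted p = 0.402). Reads on the 5′ leader, listed as separate entries and left out above, were most frequent for Scd2 and the squalene epoxidase gene Sqle. They held 17.9 to 24.7% of the reads of Scd2 in the group labelled Rptor fl/fl and 17 to 36.9% in SCe, and 24.3 to 25.5% and 13.5 to 37.8% of those of Sqle.

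Of 23 further sterol genes tested 2 were higher and 3 lower, against 6.63 and 9.84% of all genes, led by Soat1 (-1.32), Soat2 (1.49), Lbr (0.78) and Tmem97 (-0.80). Of 24 further fatty acid genes 3 were higher and 5 lower, led by Elovl5 (-1.24), Acsl4 (-1.38), Hacd3 (-0.88) and Scd3 (13.0, 2.57 and 5.55 CPM against 1.16, 0.953 and 0.853). Markers of enterocytes (5 of 12 higher), goblet cells (6 of 6 higher) and enteroendocrine and tuft cells (5 of 7 higher) moved too. Of 4 Paneth cell markers none passed, with sums of 2630 to 4550 CPM in SCe and 3610 to 5790 in the group labelled Rptor fl/fl. In the RNA-seq, 2 of these 4 were lower in Rptor fl/fl than in SCe (sums of 301 and 578 against 812 to 2810 CPM). Of 6 stem cell markers 3 were lower (Lgr5, Smoc2 and Mex3a) and Olfm4 was higher, at 416, 852 and 1160 against 4320, 4680 and 4470 CPM. Vim, the 1 stroma marker of 2 tested that passed, was at 139, 234 and 808 CPM in SCe and 7.81, 4.45 and 4.99 in the group labelled Rptor fl/fl. The part of these cells in the lipid gene values was not tested. Leaving out any 1 of the 3 libraries in the group labelled Rptor fl/fl took the sterol and the fatty acid calls to 0, with 5 to 8 sterol members still higher at an unadjusted p under 0.05. Leaving out SCe 1 gave 10 higher and 1 lower sterol members, and without SCe 3 the fatty acid call was lost.

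Translation efficiency, the change in footprints relative to the change in mRNA, was tested as the interaction of assay and group. The RNA-seq and Ribo-seq organoids of the Rptor fl/fl group differ in the labelled RPL22.HA allele. No sterol member passed (0 of 21, with 0 at an unadjusted p under 0.05 and 0 in DESeq2, against 1.12% of all 10747 genes called higher and 1.81% lower), and the sterol median was -0.04, against -0.03 over all genes. The smallest adjusted p values were those of Idi1 (0.52 ± 0.28, adjusted p = 0.333), Mvd (-0.39 ± 0.21, adjusted p = 0.334), Sc5d (-0.38 ± 0.24, adjusted p = 0.421) and Dhcr7 (-0.25 ± 0.19, adjusted p = 0.505). Their 95% intervals reached from -0.10 to 1.14, -0.87 to 0.08, -0.91 to 0.16 and -0.66 to 0.17, so changes of that size could not be told from 0. The value of Dhcr7 turned positive with a length offset (1.25, adjusted p = 0.385). Insig1 (0.38 ± 0.33, adjusted p = 0.56) and Srebf2 (-0.10 ± 0.26, adjusted p = 0.868) had wide intervals as well.

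The fatty acid branch spread further, from -0.80 to 1.48 around a median of 0.06. Acss2 alone passed, with 1.13 ± 0.19 (95% interval 0.71 to 1.55, adjusted p = 0.0156). Its mRNA was lower in Rptor fl/fl by the values above, while its footprints were at 150, 144 and 185 CPM in SCe and 174, 172 and 168 in the group labelled Rptor fl/fl (0.10 ± 0.16). Scd1 (1.48 ± 0.42, adjusted p = 0.0864) lay in the same direction and Srebf1 (-0.80 ± 0.25, adjusted p = 0.109) in the other, neither past the threshold. Acaca (0.64) and Fads1 (0.70) also had an unadjusted p under 0.05. Of 24 further fatty acid genes 1 passed, Acsl1 (1.01 ± 0.21, adjusted p = 0.0364). Of 23 further sterol genes 0 passed in edgeR, with 2 lower at an unadjusted p under 0.05 and 2 lower in DESeq2. Rptor itself had an interaction of 1.43 ± 0.39 (adjusted p = 0.0777), since its mRNA was lower in Rptor fl/fl by more (-1.89) than its footprints (-0.53, not past the threshold). This interaction lies in the direction of the Acss2 value. The Acss2 call was lost without library 3 of the Ribo-seq group labelled Rptor fl/fl, and without Rptor fl/fl line 1 or 2 or SCe 2 or 3 of the RNA-seq, at values of 1.07 to 1.19. Calls in the fatty acid branch rose to 2 without SCe 1 of either assay and to 3 without SCe 3 of the Ribo-seq.

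**Figure D3:**
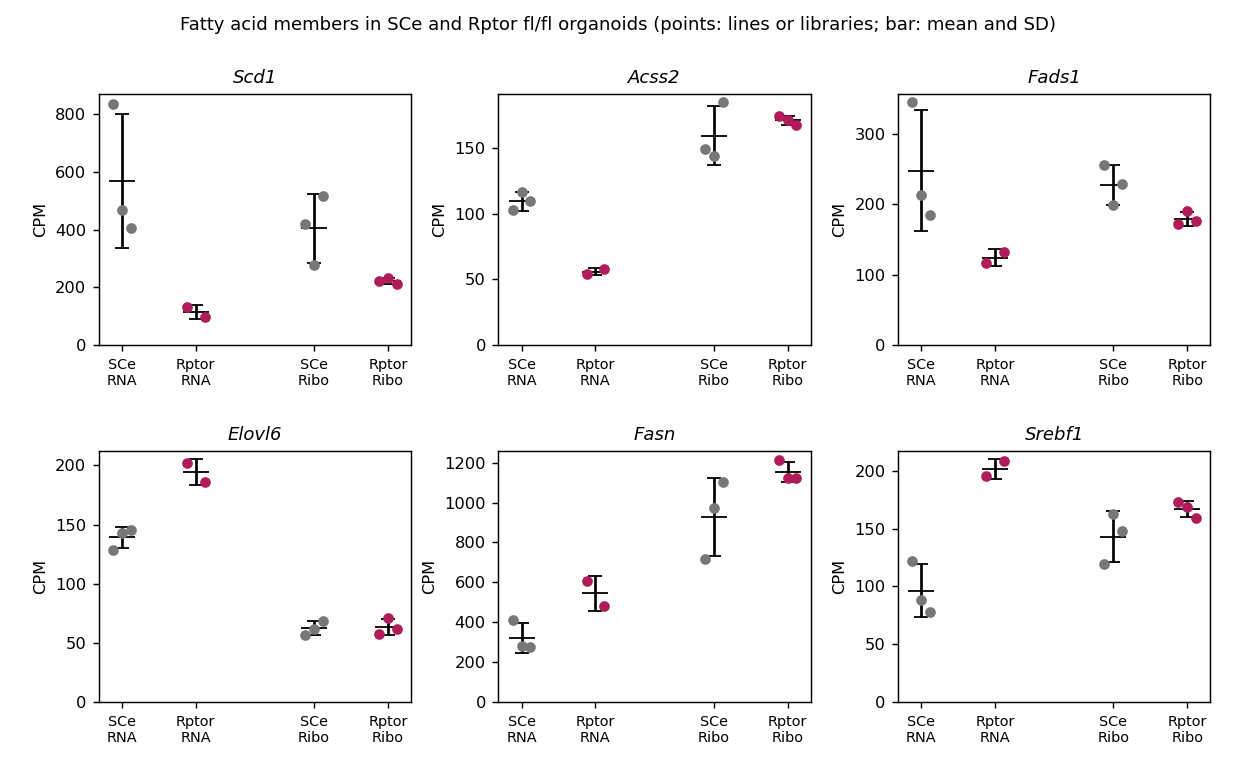
Points are CPM of 6 fatty acid genes in SCe (grey) and Rptor fl/fl (magenta) organoids in RNA-seq and Ribo-seq, with mean and SD, on axes from 0; levels are to be compared within an assay only. For Acss2 the RNA points part (103 to 117 against 53.8 and 57.7) while the footprint points overlap, and for Srebf1 the RNA points part upward (78.3 to 122 against 196 and 208).

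In mice, footprints on tagged ribosomes were compared between Rptor fl/fl and WT animals, 3 of each. Members of both branches were higher, and none was lower, also not at an unadjusted p under 0.05 or in DESeq2. Of 21 sterol members 8 were higher and of 11 fatty acid members 6, against 7.47% of all 11515 genes called higher and 5.97% called lower. The medians were 0.37 and 0.29, against -0.015 over all genes. Rptor footprints were at 41.7, 39.7 and 44.7 CPM in WT and 32.6, 34.4 and 36.9 in Rptor fl/fl mice (-0.29 ± 0.12, adjusted p = 0.15), lower in each animal but not past the threshold. The mouse reference sequences joined the 5′ leader to the coding sequence, so these values hold leader footprints and are not set against the organoid levels.

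The desaturases changed most. Scd1 had 91.0, 73.1 and 76.5 CPM in WT and 231, 199 and 212 in the Rptor fl/fl mice (1.45 ± 0.10, adjusted p = 7.78e-08), and Scd2 (chr19:44293674-44306864, + strand) had 138, 127 and 101 against 326, 240 and 263 (1.23 ± 0.13, adjusted p = 7.53e-06). No WT mouse came near a Rptor fl/fl mouse in either gene. Acly was at 99.9, 112 and 120 against 159, 138 and 144 (0.38 ± 0.09, adjusted p = 0.0140). Fasn (0.29), Acaca (0.41) and Elovl6 (0.55) rose as well, but the calls of Acly, Acaca, Fasn and Elovl6 were fragile. With a length offset Scd1 and Scd2 alone stayed past the threshold, DESeq2 called neither Acaca nor Elovl6, and the calls of Acly, Acaca and Fasn were lost without WT mouse 2. Per length, Acaca was at 7.03 ± 3.36 in WT and 6.85 ± 0.46 in Rptor fl/fl mice (SD, n = 3). Acss2 (-0.08), Fads1 (0.02) and Fads2 (0.05), which were lower in the RNA of Rptor fl/fl than of WT organoids, had overlapping groups here, as did Me1. Srebf1 was at 130, 147.5 and 148 in WT and 149, 157 and 148 in Rptor fl/fl mice (0.07 ± 0.08, adjusted p = 0.655).

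In the sterol branch Hmgcs1 (chr13:119690379-119708260, + strand) had 351, 371 and 351 CPM in WT and 507, 468 and 482 in Rptor fl/fl mice (0.44 ± 0.07, adjusted p = 6.82e-04). Fdft1 had 69.5, 89.9 and 86.4 against 122, 118 and 125 (0.53 ± 0.10, adjusted p = 0.00160). Sc5d had 91.0, 98.6 and 78.7 against 131, 119 and 124 (0.50 ± 0.10, adjusted p = 0.00344). All Rptor fl/fl mice were above all WT mice in these genes, and again for Cyp51, with 79.6, 100.4 and 92.97 against 143, 135 and 120 (0.50 ± 0.10, adjusted p = 0.00373). Ctsb and Akap9 overlap Fdft1 and Cyp51, respectively, on the other strand. Sqle, Fdps (0.39, overlapping Gm43738 on the same strand at 32.9 to 51.5 CPM), Msmo1 and Mvd made up the other calls. Mvd had the largest value of the branch (0.78 ± 0.18, adjusted p = 0.00744) on few reads, 7, 37 and 100 in WT and 82, 90 and 239 in the Rptor fl/fl mice, with its opposite-strand neighbour Gm20388 at 0.0 to 26.0 CPM. Srebf2, at 137, 139 and 131 against 139, 136 and 137 (0.03 ± 0.08, adjusted p = 0.877), and Insig1, at 50.6, 34.7 and 34.7 against 47.4, 41.4 and 37.3 (0.15 ± 0.15, adjusted p = 0.575), overlapped. Stard4, the sterol carrier, had a value of -0.04 (adjusted p = 0.823) in mice. In organoids it was among the first sterol genes in the comparisons with SCe, but not in the RNA of Rptor fl/fl against WT (-0.08, adjusted p = 0.494).

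**Figure D4:**
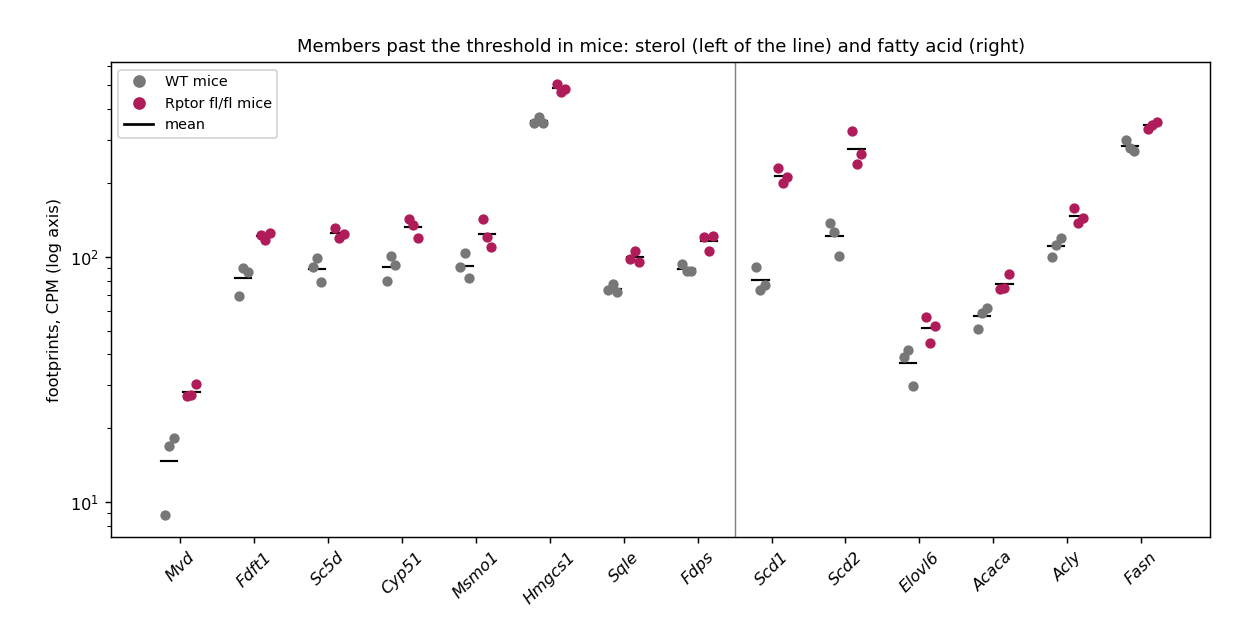
Points are footprint CPM (log axis) of the 14 members past the threshold in WT (grey) and Rptor fl/fl (magenta) mice, bars are means, and the vertical line parts the 8 sterol from the 6 fatty acid genes. In each gene all 3 Rptor fl/fl mice lie above all 3 WT mice, but the genes were picked by their calls in these same mice, so this is no separate support. The gap is widest for Scd1 (73.1 to 91.0 against 199 to 231).

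Of 26 further sterol genes 4 were higher and none lower (edgeR; 2 lower at an unadjusted p under 0.05 and 0 in DESeq2), against 7.47 and 5.97% of all genes, among them the exporter pair Abcg8 (173, 188 and 197 against 264, 278 and 301 CPM, 0.58) and Abcg5 (0.29) and the importer Npc1l1 (0.33). Of 25 further fatty acid genes 2 were higher, Agpat2 (0.56) and Acsl3 (0.52), and 1 was lower, Dgat2 (-0.32). Other cell types moved in the same libraries. Adipocyte markers, some of which share lipid synthesis with these members, were higher for 3 of 7 genes tested, with sums of 198 to 221 CPM in WT and 261 to 340 in Rptor fl/fl mice. Adipoq was at 5.06, 5.94 and 5.30 against 10.2, 13.7 and 11.7, Fabp4 and Cfd also rose, and Plin1 had 10.1, 5.94 and 3.29 against 5.60, 6.09 and 5.05. Enterocyte markers were higher for 5 of 12 genes and lower for 1 (71100 to 73100 against 81700 to 86900 CPM), goblet cell markers for 4 of 6 and stroma markers for 3 of 6, with 1 stroma marker lower, while 2 of 5 stem cell markers tested (Olfm4 and Ascl2) and 2 of 4 Paneth cell markers were lower. Acinar markers summed to 2450 to 5700 CPM over all mice. The part of these cells in the lipid gene values was not tested. In organoids, by contrast, the RNA of Adipoq, Fabp4 and Cfd was at most 0.0353 CPM. Sterol calls fell to 4 without WT mouse 3, and fatty acid calls to 3 without WT mouse 2, WT mouse 3 or Rptor fl/fl mouse 3. Scd1, Scd2, Hmgcs1, Fdft1, Cyp51 and Mvd kept their calls without any 1 mouse.

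The gap between the branches differed among the comparisons. The sterol median minus the fatty acid median was 0.02 for Rptor fl/fl against WT organoids and 0.08 for Rptor fl/fl against WT mice. It was -0.88 for SCe against WT, 0.81 for Rptor fl/fl against SCe in RNA-seq and 0.40 in Ribo-seq, and -0.10 for translation efficiency. The organoid comparisons share libraries, and these differences of medians carry no test. Scd1 had the largest absolute change of all members in the RNA of Rptor fl/fl organoids, against WT and against SCe, and in the footprints of mice, but in opposite directions.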

How the data were processed

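RNA-seq and Ribo-seq of 23 mouse libraries were analysed in 7 groups. The deposited expected counts were made by the authors with cutadapt 1.18 and Salmon 1.1.0 (mm10, transcripts of GENCODE vM21, GRCm38.p6), on whole transcripts for RNA-seq, on coding sequences with separate 5′ entries for organoid Ribo-seq, and on joined leader and coding sequence for mouse Ribo-seq. The 5′ entries were left out, transcripts summed per gene and values rounded. The authors' table of translation efficiency tests was not used. Technical libraries were summed per line. Genes were filtered with filterByExpr, scaled by TMM and tested with edgeR's quasi-likelihood test (edgeR 4.0.16, R 4.3.3), with Benjamini-Hochberg adjustment over all genes tested and a threshold of 0.05. For translation efficiency the term tested was assay by group. Levels per length divide reads by Salmon's effective length. The alternatives were DESeq2 1.42.0, RLE size factors, no count filter, a length offset, library sizes without the top 10 genes, a replicate block, separate technical libraries, 1 fit over the RNA groups, 5′ entries added, and leaving out each replicate. Depth was 23802944 to 67598878 reads in RNA-seq and 772077 to 8257457 in Ribo-seq. Fits were tested on simulated data. A log2 change of 1 was recovered for 82.7% of changed genes in mice and 75.5% in Rptor fl/fl against WT organoids. It was recovered for 21.4 to 28.6% in the organoid comparisons with SCe and for 7.22% in translation efficiency. False calls made up 2.61 to 8.47% of all calls.

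Named in full were the 4 sterol and 3 fatty acid members with the smallest adjusted p in each comparison, Srebf1, Srebf2 and Insig1, members past the threshold against the sign of their branch median, and up to 4 called genes of each further list. Other members were named after their values were seen. The members and lists were chosen with earlier results of these data known. A gene of the further sterol list is counted but its own values are not reported here.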

Additional observations from a re-analysis of the deposited data

Results flagged for a closer look

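For 4 members both Rptor fl/fl comparisons with WT passed the threshold (edgeR quasi-likelihood test), with all Rptor fl/fl samples on one side of WT in organoid RNA-seq and on the other in mouse Ribo-seq. Over all genes, 11% were called lower in organoids and 7.47% higher in mice. The share of all genes called in both with opposite signs is not given, so whether 4 is unusual cannot be said. Scd1 changed by -2.32 (log2) in organoids and 1.45 in mice. Elovl6 changed by -0.44 and 0.55. In the sterol branch, Mvd changed by -0.41 and 0.78, and Fdps by -0.43 and 0.39. With a length offset the calls of Elovl6, Mvd and Fdps were lost in organoids as well as in mice, while Scd1 kept both. DESeq2 did not call Elovl6 in mice, and with RLE size factors the organoid call of Fdps was lost. The difference between the comparisons was not tested, and the assay, the Cre driver, the cells and the time since induction differ between them and cannot be told apart. Fdps overlaps Gm43738 on the same strand, which held 32.9 to 51.5 CPM in mice and at most 0.227 CPM in the RNA-seq of Rptor fl/fl and WT organoids. Acss2 differed in its change between assays in Rptor fl/fl against SCe organoids, by 1.13 (edgeR interaction, adjusted p = 0.0156). Its mRNA fell by 0.98 on the log2 scale and its footprints changed by 0.10, and Gss overlaps it on the other strand. The Acss2 call was lost with the length offset and with the replicate block. Rptor itself had an interaction of 1.43 ± 0.39 (edgeR interaction, adjusted p = 0.0777), and its footprints were not called lower in the group labelled Rptor fl/fl.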

How the results depend on the processing

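Of 767 values of named genes under the alternatives, covering 57 pairs of gene and comparison, none turned direction against a called value, 688 kept their side of the threshold, 60 fell below it and 19 rose past it. Members not named were not followed in this way. The cause of the changes in counts was not tested, except that leaving out a sample leaves fewer samples. For Rptor fl/fl against WT organoids, sterol calls were 17 with the replicate block (Srebf2 higher, 16 lower), 18 with technical libraries separate (Srebf2 higher, 17 lower) and 0 in 1 fit over the RNA groups, and fatty acid calls 9 with technical libraries separate (Srebf1 higher, 8 lower) and 3 in 1 fit. For SCe against WT, fatty acid calls were 5 with DESeq2 and 5 with technical libraries separate (each with Acaca higher and 4 lower). For organoid Ribo-seq, sterol calls were 9 with DESeq2 (8 higher, Dhcr7 lower), 3 with the length offset and 2 with the replicate block, and the fatty acid call was lost with the length offset (0) and the block (0). For translation efficiency, fatty acid calls were 3 with DESeq2 and 3 with technical libraries separate (each with Acss2 and Scd1 higher and Srebf1 lower), 0 with the length offset and 0 with the block. For mice, the length offset gave 5 sterol and 2 fatty acid calls. For Rptor fl/fl against SCe in RNA-seq, the block gave 4 fatty acid calls (2 higher, 2 lower).

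The labels do not say that a shared number marks a shared animal, batch or day, so the samples were not treated as paired. The study's methods mention further VillinCre.ERT2.Rptor.fl/fl animals, induced in vitro to give paired samples, without naming the libraries. Deviations of same-numbered samples correlated at 0.416 for Rptor fl/fl against WT, 0.33 and 0.294 against SCe, 0.241 and 0.219 for SCe against WT (2 shared numbers each), -0.054 to 0.0268 in organoid Ribo-seq and -0.0159 to 0.022 in mice. With 2 shared numbers the RNA-seq values neither show nor exclude a pairing of the lines.

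Leaving out each replicate gave 2 to 8 sterol calls with medians of -0.508 to -0.299, and 3 to 5 fatty acid calls, for Rptor fl/fl against WT organoids. For SCe against WT it gave 5 to 21 sterol and 1 to 6 fatty acid calls, with fatty acid medians of -0.383 to 0.049. For Rptor fl/fl against SCe it gave 2 to 14 and 1 to 10 in RNA-seq, 0 to 11 and 0 to 1 in Ribo-seq, and 0 and 0 to 3 for translation efficiency. In mice it gave 4 to 9 and 3 to 6. Where 1 sample was left in a group, it was assumed to vary like the other group. Depth was lowest in the Ribo-seq, at 1106178 footprints in SCe 2 and 772077 in WT mouse 1, and without SCe 2 organoid Ribo-seq again gave 5 sterol calls.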
